A study of Gallus gallus with 28 samples.

Results

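The response to heat was examined in RNA from the anterior preoptic hypothalamus of Cobb broiler chicks, 10 days old, whose parents had been heat conditioned as embryos. The comparison set 3 libraries from chicks moved from 30 °C to 36 °C and killed 6 h later against 3 libraries from unchallenged chicks of the same parentage (t0). These 6 libraries were chosen by their labels alone, out of 18 RNA libraries and 28 samples in the series. The other RNA libraries, also 3 per group, were t0 and heated chicks of non-conditioned parents, and chicks of both lineages taken 6 h after lipopolysaccharide (LPS, a bacterial cell wall component) was given into the third ventricle. Conditioning is described in the labels of the methylation samples as 39.5 °C for 12 h a day on embryonic days 7 to 16, against 37.8 °C for control eggs. The heated and the t0 chicks compared here all came from conditioned parents, and neither group had been conditioned itself. No group was handled and kept for 6 h without a challenge, so an effect of heat cannot be told apart from one of being handled or of the hours that passed. The labels describe each sample as a whole tissue lysate and do not say whether a library is 1 chick or a pool, so p-values measure the spread between these libraries, which may be technical.

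The preoptic area receives signals of skin and core temperature and adjusts heat loss and heat production to them. In birds, heat loss rests largely on panting and on blood flow through unfeathered skin. Heat challenge also engages the neuroendocrine stress axis, and heat-stressed cells raise molecular chaperones, which hold unfolded proteins in solution and refold them. The deposited table gives Ensembl identifiers without gene symbols, and 0 of its 11207 identifiers could be paired with a name. Chaperones, thermoregulatory peptides, markers of the dissected region and markers of other cell types could therefore not be looked up, and genes are given by identifier with no role attached. In bulk tissue, fewer cells of a type and less RNA per cell cannot be told apart.

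The t0 libraries of this lineage were shallow and unlike each other. Their totals were 1422688, 1168108 and 828424 counts for libraries 1, 2 and 3, numbered as in the titles, and those of the heated libraries were 3199597, 1214734 and 2241298. The ranges overlapped, with means of 1139740 ± 298146 at t0 and 2218543 ± 992627 under heat (SD, n = 3 each; 2-sided exact permutation p = 0.2, where the smallest possible is 0.1). After every library was thinned at random to 828424 counts, 9749, 9658 and 9501 genes had a count at t0 and 10036, 9883 and 9808 did under heat. The thinned ranges did not overlap (exact permutation p = 0.1, the smallest possible), so somewhat more genes were seen in each heated library than in each t0 library at equal depth. On the principal component that held 45.6% of the variance of the 6 libraries, t0 library 1 scored -16.9, inside the heated range of -26.2 to -12.8. The t0 libraries 2 and 3 scored 20.3 and 55.1, apart from the other 4. Across genes, t0 library 1 correlated with the heated libraries at r = 0.952 to 0.967 and with t0 libraries 2 and 3 at 0.947 and 0.919. These coefficients describe log2 levels over genes, which are not independent replicates.

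No gene passed the test of heat against t0 in the conditioned lineage. With edgeR's quasi-likelihood test, 0 of 7921 genes (0%) had a Benjamini-Hochberg adjusted p under 0.05, and the smallest adjusted p was 0.21. At an unadjusted p under 0.05 stood 1034 genes (13.1% of those tested), 536 with higher values under heat (6.77%) and 498 with lower values (6.29%). That count moved with single libraries, to 1878 when t0 library 1 was dropped, and to 669, 573 and 646 when t0 library 2, t0 library 3 or heated library 1 was. DESeq2 called 44 genes, 15 higher (0.453%) and 29 lower (0.875%), together 1.33% of the 3313 genes to which it gave an adjusted p. Voom with sample quality weights called 4 genes, 3 higher (0.0379%) and 1 lower (0.0126%), together 0.0505%, and all 4 were among the DESeq2 calls. Its weights were 0.533, 2.37 and 0.727 for t0 libraries 1, 2 and 3, and 0.958 to 1.09 for the heated libraries. Voom thus leaned most on t0 library 2 and least on t0 library 1. When t0 library 1 was left out, edgeR called 213 genes (2.69%), 141 higher (1.78%) and 72 lower (0.909%). Of the 44 DESeq2 calls, 29 were among these 213, a share of 65.9% of the first list and 13.6% of the second. All 4 voom calls were among the 213 too. When t0 libraries 2 and 3 were left out together, leaving a single t0 library that was assumed to vary like the other groups, edgeR called 0 genes and 281 had an unadjusted p under 0.05.

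**Figure D1:**
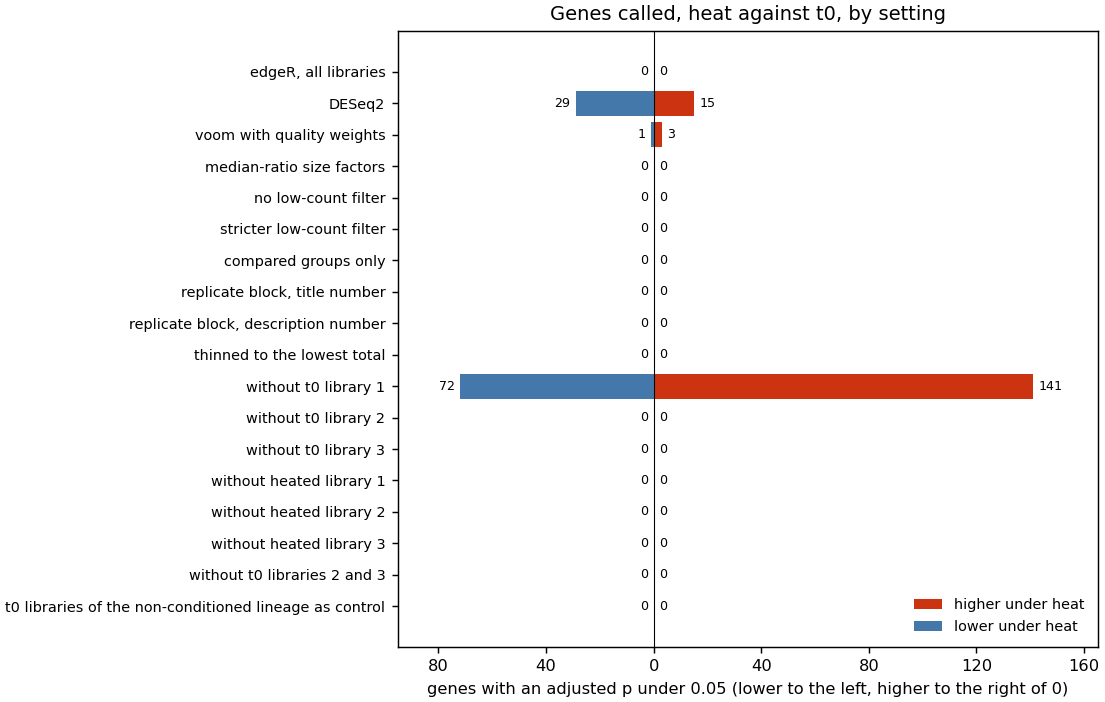
Number of genes with an adjusted p under 0.05 for heat against t0 in the conditioned lineage (horizontal axis; lower under heat to the left of 0, higher to the right) under each setting (vertical axis). Bars are present for DESeq2 (29 lower, 15 higher), voom (1 and 3) and edgeR without t0 library 1 (72 and 141), and every other setting shown stands at 0.

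The plot of calls by setting shows the contrast between the 3 t0 libraries. The count reached 213 without the t0 library that lay among the heated ones, and it was 0 without library 2, without library 3 and without each heated library in turn.

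Under 1 spread shared by all groups, the difference of most abundant genes could be bounded. The t0 libraries of this lineage spread more than the other groups, so these intervals may be too narrow for this comparison. Over 100 CPM their median SD of log2 CPM was 0.207, against 0.133 to 0.171 elsewhere. The 95% interval of the log2 fold change lay between -1 and 1, that is within a 2-fold change, for 4579 genes (57.8%). The share was 93.3% of the 1711 genes with a mean over 100 CPM (counts scaled to a common library size; these abundance classes use the mean over all 18 RNA libraries) and 6.62% of the 1829 genes under 10 CPM. The median standard error was 0.16 in the former and 0.54 in the latter on the log2 scale. The median log2 fold change of all genes was 0.02, with the 5th and 95th percentiles at -0.65 and 0.90. Estimates past 2-fold were held by 297 genes on the higher side and 136 on the lower. Most of these were scarce: 212 of the 297 and 84 of the 136 had a mean under 10 CPM, where the median log2 fold change was 0.18.

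Abundant genes leaned the other way from scarce ones. Over 100 CPM the median log2 fold change was -0.07, and 224 genes had an unadjusted p under 0.05 with lower values under heat, against 117 with higher values. At 10 to 30 CPM the median was 0.09 and the corresponding counts were 74 lower and 140 higher. Among the DESeq2 calls, 18 of the 29 lower genes and 5 of the 15 higher genes had a mean over 100 CPM. Over 100 CPM, higher genes made up 34.3% of those at an unadjusted p under 0.05. That share was 39.8%, 27.6% and 32.7% when t0 library 1, 2 or 3 was dropped, with median log2 fold changes of -0.10, -0.07 and -0.05. The counts fell to 163 lower and 62 higher without library 2, and to 101 and 49 without library 3. With libraries 2 and 3 both left out the median was -0.03. Against the t0 libraries of the non-conditioned lineage the counts were 23 lower and 22 higher, with a median of 0.00. The t0 libraries of the conditioned lineage had fewer genes counted at equal depth, as given above, and the part of that difference in these medians was not tested.

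**Figure D2:**
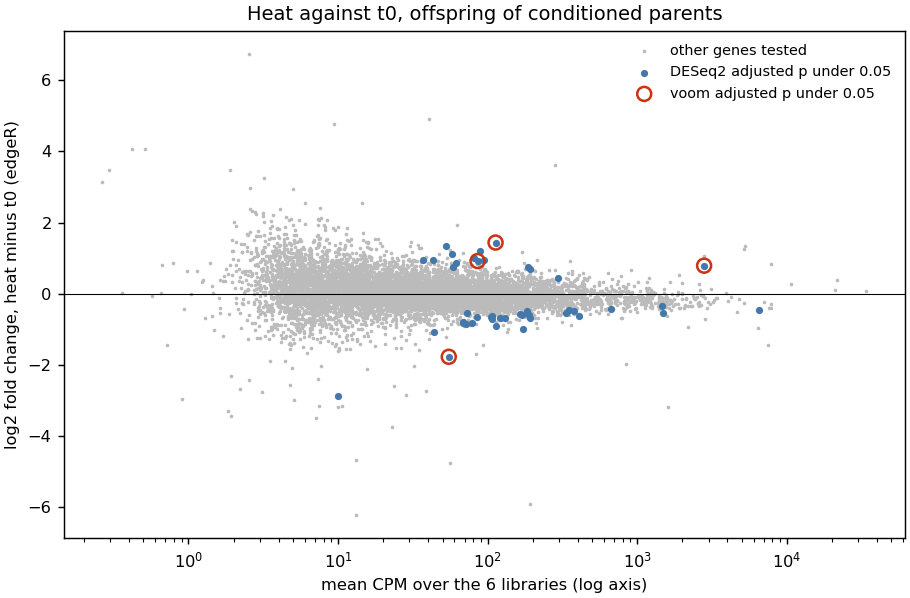
Log2 fold change of heat over t0 from edgeR (vertical axis) against the mean CPM over the 6 libraries (horizontal axis, log scale) for each of the 7921 genes tested. Blue points mark the 44 DESeq2 calls and red rings the 4 voom calls, and the cloud narrows with abundance, from a median standard error of 0.54 under 10 CPM to 0.16 over 100 CPM (classes by the mean over all 18 RNA libraries).

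In the plot of fold change against abundance the called genes lie mostly at moderate to high abundance. By the mean over the 6 libraries the scarcest DESeq2 call stood at 9.93 CPM, and by the mean over all 18 all 44 calls stood at 30 CPM or more. DESeq2 gave an adjusted p to 3313 genes only, and a gene without one could not be called. ENSGALG00000000226.5, at 39.8 to 53 CPM in the 6 libraries, was among those without one. The abundance of the calls was thus set in part by which genes got an adjusted p, and it cannot show whether scarcer genes responded.

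The clearest higher estimate was that of ENSGALG00000033591.2. Its levels were 80.9, 51.3 and 47.2 CPM in t0 libraries 1, 2 and 3 and 166.5, 192.6 and 138.8 CPM in the heated libraries. The groups did not overlap, and t0 library 1 was the closest to the heated ones. Heat exceeded t0 by a log2 fold change of 1.44 ± 0.27 (SE; 95% interval 0.88 to 2.00), with an adjusted p of 0.21 by edgeR, 0.00044 by DESeq2 and 0.043 by voom. In unchallenged chicks of non-conditioned parents the gene stood at 149.3, 149.6 and 119.8 CPM, within or near the heated range and above all 3 t0 libraries of the conditioned lineage. Measured against those 3 libraries, the heated chicks of conditioned parents differed by 0.24 ± 0.24 (edgeR adjusted p = 1).

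ENSGALG00000033212.2 was an abundant gene with higher values under heat. It stood at 2641, 1699 and 1795 CPM at t0 and at 4022, 3370 and 3254 CPM under heat. All heated libraries exceeded all t0 libraries, by a log2 fold change of 0.79 ± 0.16 (0.46 to 1.13; adjusted p = 0.21 by edgeR, 0.00143 by DESeq2, 0.0103 by voom). Without t0 libraries 2 and 3 the estimate was 0.43. In the non-conditioned lineage the levels were 3388, 2842 and 3272 CPM at t0 and 5708, 5712 and 5111 CPM under heat. The log2 fold change there was 0.80 ± 0.16 (edgeR adjusted p = 0.068), and the difference between the lineages in the fold change was 0.00 ± 0.23 in size (edgeR adjusted p = 0.995), while the level at t0 was lower in the conditioned lineage.

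ENSGALG00000021231.4 was the remaining voom call with higher values. Its heated libraries were close to each other at 113.5, 112.0 and 113.9 CPM, whereas t0 libraries 1, 2 and 3 held 90.9, 46.1 and 37 CPM. The log2 fold change was 0.92 ± 0.24 (0.43 to 1.42; adjusted p = 0.244 by edgeR, 0.0324 by DESeq2, 0.043 by voom). It was 1.43 without t0 library 1 and 0.32 without libraries 2 and 3, so the size of the estimate moved with the t0 libraries used.

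On the lower side, ENSGALG00000029872.1 had the largest estimate among the genes named by the smallest p. Its levels were 44.4, 97.4 and 113.4 CPM at t0 and 23.7, 28.9 and 21.9 CPM under heat. The groups were apart, and the log2 fold change was -1.77 ± 0.35 (-2.51 to -1.04; adjusted p = 0.21 by edgeR, 0.000924 by DESeq2, 0.043 by voom). Unchallenged chicks of non-conditioned parents had 26.9, 23 and 34.7 CPM, in and around the heated range. Heated chicks of non-conditioned parents had 47.7, 50.4 and 58.1 CPM. The estimate thus had the opposite sign in that lineage (0.89 ± 0.33, edgeR adjusted p = 0.574). The difference between lineages was -2.66 ± 0.48, with an adjusted p of 0.0657 by edgeR, which did not pass, and of 0.000124 by DESeq2 and 0.0308 by voom, which did. Without t0 libraries 2 and 3 the heat estimate in the conditioned lineage was -0.86.

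ENSGALG00000024049.3 showed a smaller and tighter difference. It held 132.4, 151.3 and 161.9 CPM at t0 and 85.4, 99.8 and 93.2 CPM under heat. The log2 fold change was -0.68 ± 0.14 (-0.98 to -0.38; adjusted p = 0.21 by edgeR, 0.00648 by DESeq2, 0.0524 by voom). The 3 t0 libraries of the non-conditioned lineage, at 97.3, 83.3 and 103.1 CPM, again lay around the heated levels rather than around the t0 levels of the conditioned lineage.

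**Figure D3:**
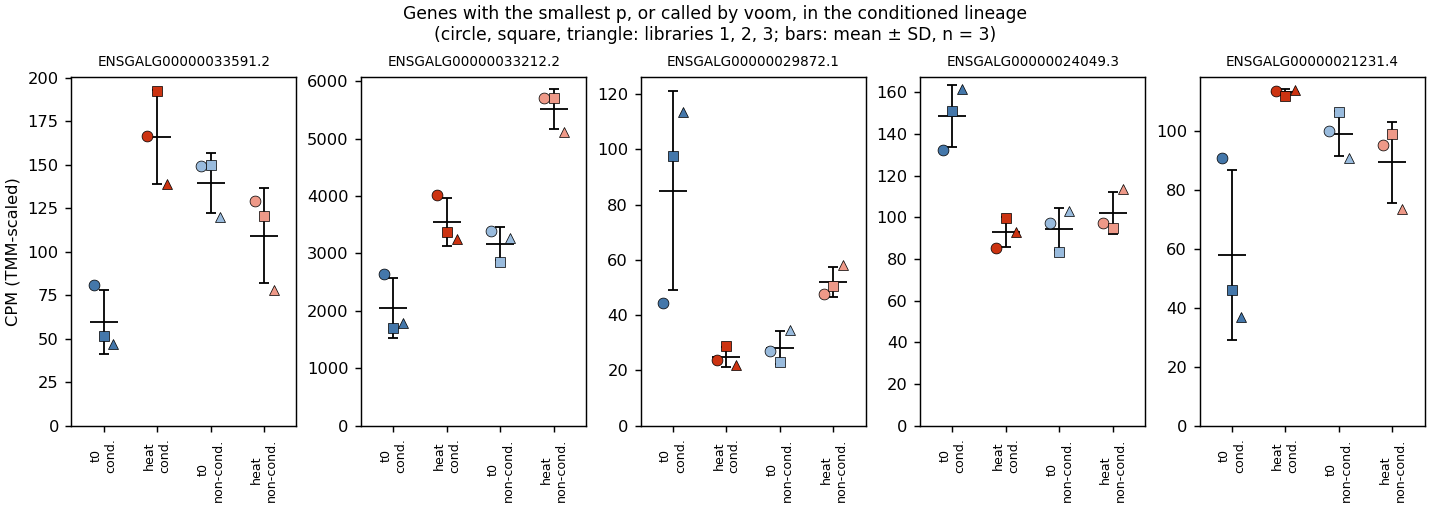
CPM (vertical axes, from 0) of the 5 genes with the smallest p or called by voom, in t0 and heated libraries of the conditioned and non-conditioned lineages. Symbols are libraries 1, 2 and 3 and bars are mean ± SD (n = 3). In every panel the t0 libraries of the conditioned lineage stand apart from its heated libraries, and library 1 (circle) is the t0 library nearest to them.

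The plot of these 5 genes shows the same arrangement in each panel: the t0 libraries of non-conditioned parents lie nearer to the heated chicks of conditioned parents than the t0 libraries of conditioned parents do. These genes were chosen for their difference between heat and t0 in the conditioned lineage, so the distance of its t0 libraries is part of the choice.

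The share of the difference carried by each t0 library was described over all abundant genes. Each t0 library was set against the mean of the 3 heated libraries, and genes over 1.5-fold apart were counted among 2923 genes with a mean of at least 50 CPM. Library 1 differed in 108 genes, of which 61 were higher under heat. Library 2 differed in 354, of which 197 were higher, and library 3 in 758, of which 418 were higher. The t0 libraries of the non-conditioned lineage, set against the same heated mean, differed in 84, 114 and 106 genes. Unchallenged chicks of the other lineage were thus about as near to the heated chicks of conditioned parents as t0 library 1 was, and nearer than libraries 2 and 3. With all libraries thinned to 828424 counts the numbers were 141, 405 and 804 in the conditioned lineage and 138, 167 and 153 in the other, in the same order for the conditioned lineage.

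**Figure D4:**
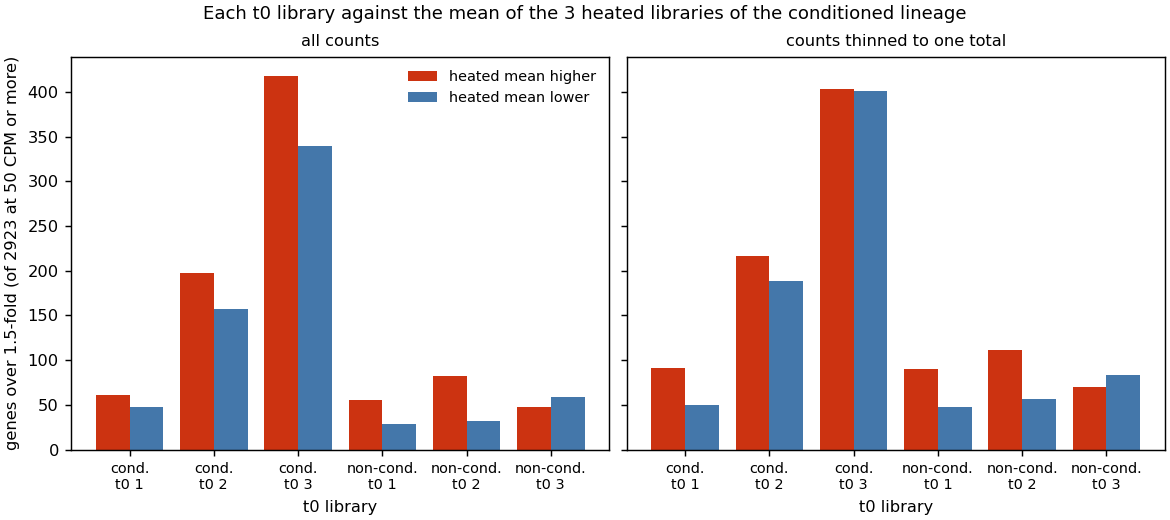
Genes over 1.5-fold from the mean of the 3 heated libraries of the conditioned lineage (vertical axis, of 2923 genes at 50 CPM or more), for each t0 library of the conditioned and non-conditioned lineages. Red bars count genes higher in the heated mean and blue bars genes lower, with all counts on the left and counts thinned to 1 total on the right. Library 3 of the conditioned lineage stands highest (418 and 340 with all counts) and library 1 (61 and 47) stands with the non-conditioned libraries.

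In the plot by t0 library the bars of libraries 2 and 3 of the conditioned lineage are higher than those of the other 4 t0 libraries. A distance like that of t0 library 2 was also seen outside the t0 groups. LPS library 2 of the conditioned lineage, not plotted, differed from the heated mean in 344 genes, against 354 for t0 library 2 (399 and 405 after thinning). Library 1 was also the nearest to the heated mean over the genes with an unadjusted p under 0.05. For the 536 genes with higher values under heat, the median log2 difference of a t0 library from the heated mean was -0.40 in library 1, -0.86 in library 2 and -1.05 in library 3, and library 1 was the nearest of the 3 in 404 genes. For the 498 genes with lower values it was 0.32, 0.56 and 0.71, and library 1 was the nearest in 355. In these sets, which the comparison itself selected, the mean of the non-conditioned t0 libraries lay at -0.09 and 0.05 from the heated mean. Libraries also spread more within the t0 group: the median SD of log2 CPM over the 1711 genes above 100 CPM was 0.207, against 0.133 to 0.171 in the other 5 groups, and 0.214 against 0.153 to 0.18 after thinning.

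The 3 heated and 3 t0 libraries did not overlap in 1211 genes (15.3% of 7921), 647 higher under heat (8.17%) and 564 lower (7.12%). In the non-conditioned lineage the heated and t0 libraries did not overlap in 1112 genes (14%). A narrower count required the heated libraries to lie beyond the t0 libraries of both lineages. In 146 genes (1.84%) all 3 heated libraries of the conditioned lineage lay outside the range of the 6 t0 libraries, 86 above it (1.09%) and 60 below it (0.757%). By comparison, the 3 t0 libraries of the conditioned lineage lay beyond both its heated libraries and the other lineage's t0 libraries in 671 genes (8.47%), 323 above and 348 below. For the non-conditioned lineage the matching counts were 238 genes (3%) for its heated libraries beyond all 6 t0 libraries and 193 (2.44%) for its t0 libraries beyond the heated and t0 libraries of the conditioned lineage. The largest of these 4 counts was that of the t0 libraries of conditioned parents, and the smallest was the 146 of its heated libraries. Libraries ordered at random would also meet these conditions, and that of no overlap, in some genes. The share to be met with in that way was not computed, so the 146 genes are no test of a response to heat.

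Single genes beyond all 6 t0 libraries are given here as examples chosen after their values were seen. ENSGALG00000029193.1 was counted at 10.0, 26.1 and 21.7 CPM at t0 and at 2.10, 2.63 and 1.69 CPM under heat. These rest on few raw counts, 14, 30 and 17 at t0 and 7, 3 and 4 under heat. The heated libraries of conditioned parents were lower than all 15 other RNA libraries, of which the lowest held 6.78 CPM. Its estimate on the log2 scale was -3.16 ± 0.73 (edgeR adjusted p = 0.244), and it was -2.26 without t0 libraries 2 and 3 and -2.37 ± 0.70 against the t0 libraries of the other lineage (edgeR adjusted p = 1). The difference between the lineages in the heat response of this gene was -4.37 ± 0.90 (adjusted p = 0.0936 by edgeR and 0.0483 by voom, with none given by DESeq2).

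ENSGALG00000010580.4 lay above all 6 t0 libraries. It had 26.5, 25.2 and 24.2 CPM at t0, close to each other, and 63.8, 48.1 and 43.9 CPM under heat, while the other lineage had 37.9, 39.8 and 35.6 CPM at t0. On the log2 scale the estimate was 1.04 ± 0.26 (edgeR adjusted p = 0.244) and 0.98 without t0 libraries 2 and 3. Against the t0 libraries of the other lineage it was 0.47 ± 0.23 (edgeR adjusted p = 1). The 3 t0 libraries of the conditioned lineage lay close together here, below those of the other lineage.

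ENSGALG00000027534.3 lay below all 6. It had 218.4, 246.9 and 238.3 CPM at t0, 143.2, 169.8 and 132.5 CPM under heat, and 210.2, 183.9 and 224.8 CPM at t0 in the other lineage. The estimated log2 fold change was -0.67 ± 0.16 (adjusted p = 0.244 by edgeR, 0.0192 by DESeq2), -0.56 without t0 libraries 2 and 3 and -0.48 ± 0.15 against the other lineage's t0 libraries (edgeR adjusted p = 1). The 2 lineages' t0 libraries lay on the same side of the heated ones for this gene.

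Most of the largest estimates belonged to genes carried by a few libraries. Among the 6045 genes with a mean of at least 10 CPM, 16 (0.265%) had an estimate past 4-fold, 13 lower under heat (0.215%) and 3 higher (0.0496%), and none passed the edgeR test. In 11 of the 13 lower genes, t0 libraries 2 and 3 both exceeded library 1 and every heated library more than 2-fold, while library 1 did not exceed the highest heated library, the lower of the pair standing 3.36- to 25.5-fold above the highest heated library. ENSGALG00000029193.1, described above, met the same condition except that library 1 also lay above the heated libraries. The remaining lower gene, ENSGALG00000043416.1, had 34.4, 67.8 and 49.7 CPM at t0 and 6.29, 23.6 and 11 CPM under heat. Its log2 fold change was -2.03 ± 0.51 (edgeR adjusted p = 0.244), and it was -1.48 without t0 libraries 2 and 3. Together the 11 genes took 0.682% of the counts in t0 library 2 and 0.363% in library 3, against 0.0238% in library 1 and 0.0232% to 0.0517% in the heated libraries. Most of these counts at t0 came from 1 gene, ENSGALG00000006453.6, with 6354 in library 2, 2315 in library 3 and 291 in library 1. The 11 genes were picked by this pattern, so their lower level in library 1 is part of the choice. Most of them reached a mean of 10 CPM only through t0 libraries 2 and 3.

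ENSGALG00000006453.6 was the most abundant of the 11, with 208.3, 5525 and 2950 CPM at t0 and 194.7, 345.7 and 426.9 CPM under heat. Its log2 fold change was -3.17 ± 0.90 (adjusted p = 0.263 by edgeR, 0.0615 by DESeq2) and turned to 0.63 when t0 libraries 2 and 3 were left out. ENSGALG00000015143.6 had 0, 716.4 and 401.5 CPM at t0 and 0, 15.8 and 8.44 CPM under heat (-5.90 ± 1.73, edgeR adjusted p = 0.263). The same genes were high in single libraries elsewhere in the series. In heated library 2 of the non-conditioned lineage 10 of the 11 exceeded both other heated libraries of that lineage more than 4-fold, and in LPS library 1 of the conditioned lineage 10 of the 11 did so against its group. ENSGALG00000015143.6 reached 372.2 CPM in the former and 512.6 CPM in the latter. Whether these genes mark a tissue or cell type was not tested, since they carry no names.

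The 3 genes on the higher side also rested on few libraries. ENSGALG00000041889.2 had 890.1 and 658.2 CPM in heated libraries 1 and 2 but 0.422 CPM in library 3, with 0, 4.35 and 141.5 CPM at t0 (3.62 ± 2.01 on the log2 scale, edgeR adjusted p = 0.447). ENSGALG00000001734.6 had 228.4 CPM in heated library 2 and at most 3.37 CPM in the other 5 libraries (4.91 ± 1.70, edgeR adjusted p = 0.282). ENSGALG00000034572.2 had 63.5 CPM in heated library 1 and at most 7.83 CPM in the other 5. In none of the 3 did the heated libraries stand together.

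Finally, the heat response of the conditioned lineage was set beside that of the non-conditioned lineage, where edgeR called 4 genes (0.0505%), all higher. ENSGALG00000023818.4 had 131.7, 116.5 and 113.4 CPM at t0 and 159.3, 103.3 and 86.9 CPM under heat in the conditioned lineage. The groups overlapped, with a log2 fold change of -0.04 ± 0.32 (-0.71 to 0.63; edgeR adjusted p = 0.973). In the non-conditioned lineage it went from 68.1, 82.5 and 87.3 CPM to 460.7, 257.5 and 565.1 CPM, a log2 rise of 2.43 ± 0.31 (edgeR adjusted p = 0.00066). The t0 levels of the conditioned lineage were higher than those of the other. After LPS all 4 called genes also stood above t0 in every library of the non-conditioned lineage. In the conditioned lineage ENSGALG00000023818.4 had 195, 421.1 and 191.4 CPM after LPS, above its t0 libraries. The other called genes lay above t0 there too, except ENSGALG00000009433.6, whose LPS and t0 libraries overlapped. These LPS differences were not tested here.

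ENSGALG00000011715.5 had 219.8, 233.9 and 225.6 CPM at t0 and 253.1, 184.7 and 228.2 CPM under heat in the conditioned lineage, where the groups overlapped (-0.02 ± 0.22, -0.48 to 0.44; edgeR adjusted p = 0.982). In the other lineage it rose by 1.78 ± 0.22 (edgeR adjusted p = 0.00066). ENSGALG00000009433.6 had 53.0, 69.6 and 58.6 CPM at t0 and 77.6, 48.1 and 73.0 CPM under heat (0.16 ± 0.22, -0.31 to 0.63; edgeR adjusted p = 0.782), against a rise of 1.35 ± 0.21 in the other lineage (edgeR adjusted p = 0.00603). For these 3 genes, and for ENSGALG00000033789.2 below, the upper bound of the interval in the conditioned lineage was below the estimate in the non-conditioned lineage. That estimate has an SE of its own, and the genes were chosen for it. The comparison is thus no test of a difference between lineages, which is given below.

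ENSGALG00000033789.2 alone among the 4 showed no overlap between heated and t0 libraries in the conditioned lineage. It had 337.9, 380.8 and 397.6 CPM at t0 and 530.4, 445.5 and 534.5 CPM under heat in the conditioned lineage. All heated libraries were above all t0 libraries, with a log2 fold change of 0.44 ± 0.13 (0.18 to 0.70) that did not pass (adjusted p = 0.263 by edgeR, 0.0747 by DESeq2, 0.0726 by voom). In the other lineage it rose by 0.98 ± 0.12 (edgeR adjusted p = 0.00066).

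**Figure D5:**
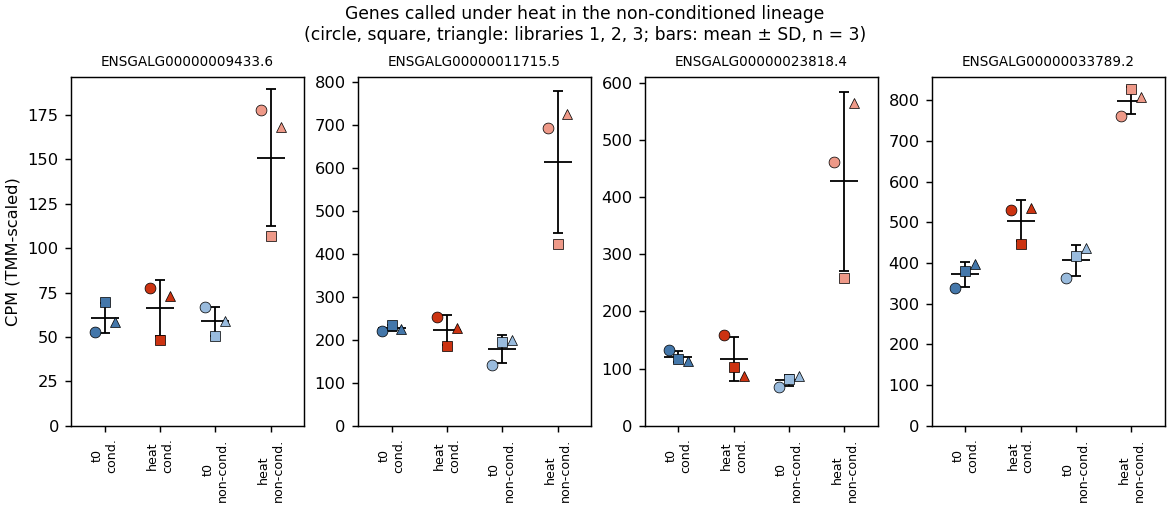
CPM (vertical axes, from 0) of the 4 genes called under heat in the non-conditioned lineage, in t0 and heated libraries of both lineages. Symbols are libraries 1, 2 and 3 and bars are mean ± SD (n = 3). In the conditioned lineage heated and t0 libraries overlap in 3 panels and are apart in that of ENSGALG00000033789.2.

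The difference between the lineages was tested directly. The interaction, the heat response in the conditioned lineage minus that in the other, was -2.47 ± 0.44 for ENSGALG00000023818.4 and -1.80 ± 0.31 for ENSGALG00000011715.5 (edgeR adjusted p = 0.0657 for both). DESeq2 gave both an adjusted p of 5.09e-05, and voom gave 0.044 and 0.0308. For ENSGALG00000009433.6 the interaction was -1.19 ± 0.31 (adjusted p = 0.131 by edgeR, 0.0235 by DESeq2, 0.0678 by voom), and for ENSGALG00000033789.2 it was -0.54 ± 0.18 (0.208, 0.0645 and 0.0681). None passed in the main edgeR fit, 3 passed by DESeq2 and 2 by voom. With only the compared groups, edgeR gave ENSGALG00000023818.4 and ENSGALG00000011715.5 an adjusted p of 0.0237. With all 18 libraries, edgeR gave both 0.0439 without the filter on low counts, and 0.038 and 0.0456 with thinned counts. ENSGALG00000009433.6 and ENSGALG00000033789.2 did not pass in these settings. Since the 4 genes were chosen by the response of the non-conditioned lineage, these differences contain that choice. Over all 7921 genes edgeR called 0 differences (0%), with 1096 at an unadjusted p under 0.05. DESeq2 called 123 (35 higher, 88 lower) of the 4691 genes to which it gave an adjusted p. Voom called 64 of 7921 (32 higher, 32 lower). Leaving out the conditioned lineage's t0 library 1 took the edgeR count to 239 of 7921 (130 higher, 109 lower). Without it, edgeR gave ENSGALG00000023818.4, ENSGALG00000011715.5 and ENSGALG00000009433.6 an adjusted p of 0.0221, 0.0167 and 0.0431, and ENSGALG00000033789.2 one of 0.0708. Without heated library 2 of the other lineage, ENSGALG00000023818.4 and ENSGALG00000011715.5 had 0.0115 and 0.00909. No other left-out library took any of the 4 genes under 0.05. The count of differing genes, and which of these 4 genes passed, thus varied with the tool, the filter, the depth and the libraries kept.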

How the data were processed

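RNA of 18 samples was sequenced by bulk MARS-seq, a method that counts transcripts from their 3′ ends, per the labels' protocols. The submitters' processing notes list cutadapt, STAR, HTSeq and DESeq2 and the galGal5 build. The sources used here state neither versions, nor use of strand, nor collapse of molecular identifiers, so overlapping, antisense and paralogous genes could not be judged. The authors deposited raw counts per gene and, per the file headers, a normalized signal, which was the raw count divided by 1 constant per library.

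Raw counts were tested with edgeR 4.0.16 (TMM, quasi-likelihood, 2-sided) under R 4.3.3. A single model with 1 mean per group held all 18 libraries, on 7921 genes kept by filterByExpr (99.5% of counts). The threshold was an adjusted p of 0.05. The SE is the log2 fold change over the square root of F. CPM is TMM-scaled. DESeq2 1.42.0 and voom (limma 3.58.1) were alternatives. The steps were tested on simulated data in which no t0 library stood apart, unlike here, so that test does not cover this feature. The 10 methylation samples are not analysed here.

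Named by rule, from genes with a mean of at least 10 CPM and no overlap between groups, were the 2 with the smallest p in each direction. The voom calls and the genes called in the non-conditioned lineage were added. Gene lists could not be applied, because the reference table of 25635 genes pairs no Ensembl identifier. Members, lists and rules were chosen with earlier results of these data known.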

Additional observations from a re-analysis of the deposited data

How the results depend on the processing

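For heat against t0 in the conditioned lineage, the count of 0 calls became 44 with DESeq2 and 4 with voom, and it ranged from 0 to 213 when each library was left out in turn, the 213 arising without t0 library 1. It was 0 with median-ratio size factors, without a filter on low counts, with a stricter filter (at least 10 CPM in 3 libraries), with only the compared groups, with thinned counts and without t0 libraries 2 and 3 together. It was also 0 with the t0 libraries of the other lineage as control, a comparison chosen after seeing the data, which crosses lineages. For the difference between lineages, 0 became 123 with DESeq2, 64 with voom, 3 without the filter, 3 with only the compared groups and 5 with thinned counts, and ranged from 0 to 239 over left-out libraries. The 239 arose without t0 library 1 of the conditioned lineage, and 2 calls arose when heated library 2 of the other lineage was left out. The cause was not tested. The 1211 genes without overlap became 1236 on the authors' normalized values. Their split changed from 647 higher and 564 lower to 617 higher and 619 lower, so the excess of higher genes depended on the normalization.

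The labels do not say whether the replicate numbers pair the samples, and the values below do not settle it. Deviations of t0 and heated libraries of the same title number correlated at 0.217, 0.0132 and 0.0615, and t0 libraries 2 and 3 correlated best with heated libraries of another title number. By description number, t0 library 1 matched heated library 2, at -0.0855, and t0 library 3 matched heated library 3, at 0.0615. With the title number as a replicate block, 0 genes were called and 1222 had an unadjusted p under 0.05, and with the description number 0 and 983.

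Estimates near 0 changed sign. That of ENSGALG00000011715.5 was 0.08 with thinned counts, 0.02 without t0 libraries 2 and 3 and 0.32 against the other lineage's t0, and ran from -0.13 to 0.09 over left-out libraries. That of ENSGALG00000023818.4 was 0.57 against the other lineage's t0 and ran from -0.36 to 0.13. The difference between lineages for ENSGALG00000033212.2 was 0.12 with voom, 0.03 without the filter, 0.01 with the stricter filter and 0.00 with the title block, and ran from -0.12 to 0.22. The 5 genes named by p or voom kept their direction in all 17 alternatives. Their heated and t0 libraries did not overlap, so settings on the same libraries could hardly turn the sign, and its constancy is no support. With the crossed control their estimates lay between -0.20 and 0.24, with standard errors of 0.14 to 0.34, so the sign there says little.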

Other observations

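ENSGALG00000041889.2 was near absent from most RNA libraries and abundant in a few. It reached 1244.5 CPM in t0 library 2 of the non-conditioned lineage, 890.1 and 658.2 CPM in heated libraries 1 and 2 of the conditioned lineage and 141.5 CPM in t0 library 3 of that lineage. In the other RNA libraries it did not exceed 4.35 CPM. It was chosen after its values were seen.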
